A study of Mus musculus with 16 samples.

Results

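The genes of the proteasome were described in the livers of obese mice that received a glucagon receptor agonist at either of 2 levels of dietary protein. Members were all protein-coding genes whose symbol begins with Psma, Psmb, Psmc, Psmd, Psme, Psmf or Psmg followed by a digit, which gave 50 genes of 55487 rows in the expression table. Of these, 47 had a mean of at least 1 TPM, reads per transcript length as a share of the library's total, over all libraries and were tested. The 3 members under that level were Psma8, the testis form of a core subunit (mean 0.169 TPM), Psmb11, the thymus form of another (0.00503 TPM), and Psme2b, a retrogene copy of an activator subunit (0.245 TPM). Psmc3ip also has a matching symbol, but it encodes a partner of meiotic recombinases and not a proteasome subunit, so it is counted as a member by rule and kept apart by role.

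Liver RNA was sequenced from 16 male C57BL6/J mice, for which the labels give no genetic change, as 1 library from each mouse and 4 mice per group. All mice were 10 weeks old at the start and ate a diet with 60% of calories from fat for 8 weeks, and were then moved to another high-fat diet whose protein was either standard (SP) or raised (HP). Vehicle or G108, a long-acting glucagon receptor agonist, was then injected under the skin each day for 22 days at 0 or 2.5 nmol/kg. A group is named by treatment and then diet, as in vehicle SP or G108 HP. The labels place the cull on day 25 after a 4 h fast, and the study's methods differ from the labels on age, on the weeks of high-fat feeding and on the last day. The samples are whole liver, so fewer cells of a type and less RNA per cell cannot be told apart.

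The proteasome is the protease that degrades proteins tagged with ubiquitin. Its core particle is a barrel of outer rings of alpha subunits, encoded by the Psma genes, and inner rings of beta subunits, encoded by Psmb genes. Psmb5, Psmb6 and Psmb7 carry the proteolytic sites, and interferons induce Psmb8, Psmb9 and Psmb10, which take their places in the immunoproteasome and favour peptides for antigen presentation. A regulatory particle caps the barrel: the Psmc ATPases unfold the substrate, and the Psmd subunits bind and release the ubiquitin chain. Psme1 to Psme4 encode other activators, Psmf1 an inhibitor, and Psmg1 to Psmg4, with Psmd5, Psmd9 and Psmd10, encode chaperones that help to assemble the particles. When proteasomes are impaired, the transcription factor Nfe2l1 raises many of these genes together through antioxidant response elements.

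Promoter sequences are shown for Psmb5, Psmb6, Psmd9 and Psmg3. The Psmb5 and Psmb6 windows hold the core of the antioxidant response element near the start. Psmd9 and Psmg3 were the only members called with G108 on SP after the scaling described below. Leaving out some single mice ended each call. The sequences come from RefSeq on GRCm38.p6 and run 5′ to 3′ on the gene's strand. They end at the base before the annotated start, or before the first annotated exon base in the case of Psmb5. Psmb5 covers chr14:54618023-54618245 (minus strand), Psmb6 chr11:70525107-70525356 (plus), Psmd9 chr5:123227940-123228189 (plus) and Psmg3 chr5:139826895-139827144 (minus). Capitals mark the element core TGACNNNGC and, in Psmd9, a match to the interferon-stimulated response element.
Psmb5: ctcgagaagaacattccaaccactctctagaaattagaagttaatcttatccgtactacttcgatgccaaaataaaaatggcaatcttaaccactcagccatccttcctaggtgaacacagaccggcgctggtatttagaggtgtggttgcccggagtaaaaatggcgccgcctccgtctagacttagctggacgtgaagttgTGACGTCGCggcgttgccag
Psmb6: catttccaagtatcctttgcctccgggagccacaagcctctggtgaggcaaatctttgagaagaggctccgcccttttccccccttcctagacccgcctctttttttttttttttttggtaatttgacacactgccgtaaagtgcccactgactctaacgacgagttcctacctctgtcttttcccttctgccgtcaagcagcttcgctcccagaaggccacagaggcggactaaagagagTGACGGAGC
Psmd9: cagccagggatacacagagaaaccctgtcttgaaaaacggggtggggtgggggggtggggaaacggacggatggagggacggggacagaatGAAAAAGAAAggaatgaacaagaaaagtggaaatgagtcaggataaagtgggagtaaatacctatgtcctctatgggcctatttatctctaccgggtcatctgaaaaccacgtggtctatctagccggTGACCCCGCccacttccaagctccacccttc
Psmg3: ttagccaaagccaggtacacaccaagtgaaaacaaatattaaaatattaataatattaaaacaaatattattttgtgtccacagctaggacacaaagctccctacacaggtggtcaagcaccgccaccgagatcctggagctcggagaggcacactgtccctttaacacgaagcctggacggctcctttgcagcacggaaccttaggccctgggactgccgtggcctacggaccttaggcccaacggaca

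A promoter of 250 bases was available for 42 of the 50 members. On either strand, the core of the antioxidant response element occurred in 5 of the 42 (11.9%) and in 10.1% of 27025 promoters of that length. Those members were Psmb5, Psmb6, Psmc6, Psmd9 and Psmd12, and the match lay 39 to 47 bases before the start in Psmb5, 1 to 9 in Psmb6 and 23 to 31 in Psmd9. The interferon-stimulated response element occurred in 3 members (7.14%) and in 3.04% of promoters, and the CCAAT box (CCAAT) in 15 (35.7%) and in 34.5%. The members with the interferon element were Psmb3, Psmd4 and Psmd9, and the Psmb8, Psmb9 and Psmb10 windows held none. Read on the gene's strand, the matched letters were TTTCACTTTC in Psmb3, TTTCCATTTC in Psmd4 and GAAAAAGAAA in Psmd9. The element lay on the opposite strand in Psmb3 and Psmd4. The Psmb8 and Psmb9 windows lie wholly in annotated exons (250 of 250 bases), so the sequence upstream of these genes was not searched. Those of Psma4, Psmb11, Psmd13 and Psme2b also lie wholly in annotated exons, and all of these stay in the counts. The Psmd9 window lies inside the gene model used for its TPM (chr5:123169413-123250131) and not before its first base. The Psmg3 window held none of these motifs. A match in letters is a description of the window and not a site of binding.

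The libraries held between 27.8 and 45.03 M reads assigned to genes, recovered from the steps of the low TPM values, and every library has the same TPM total. Because TPM are shares of that total, each result is given a second time on a scale that brings the typical gene to 1 level in all libraries (median-of-ratios scaling). Transcripts of the Mup and mitochondrial genes took 59.0 to 66.6% of TPM in the vehicle SP mice and 35.4 to 43.8% in the G108 SP mice. The scaling factors ran from 0.681 (vehicle SP mouse 4) to 1.54 (G108 SP mouse 3). Before scaling, vehicle SP mouse 4 had the lowest level of the 16 libraries for 35 of the 47 tested members, and G108 HP mouse 3 the lowest level of its group for 41. All 6 hepatocyte markers were detected in every library, from 369 TPM for Fgb to 12935 TPM for Alb on average.

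In TPM, core and base subunits were the most abundant members, and assembly chaperones the least. Over all mice the highest mean level was that of Psmb5, at 86.6 TPM, followed by Psmb6 (52.1), Psmb4 (50.8), Psma6 (48.0) and Psmc5 (43.01). TPM divide by the length of all annotated exons of a gene, so the order of members also depends on the gene models. Psmb5 has 899 exon bases and 1730 to 2659 reads per library, and Psmb1 4595 bases and 1742 to 2796 reads. The median of the 7 inner-ring members was 33.1 TPM, that of the 6 base ATPases 30.002 TPM, that of the 7 outer-ring members 24.2 TPM and that of the 11 other regulatory particle subunits 15.4 TPM. The 7 chaperones had a median of 4.11 TPM, from Psmg1 at 12.1 to Psmd5 at 2.25 TPM. Among the immunoproteasome subunits, Psmb10 stood at 19.2, Psmb8 at 6.02 and Psmb9 at 4.12 TPM.

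The order of levels was much alike in the 4 groups. Across the 47 tested members, Spearman's rho between the group means was 0.987 to 0.994 for the pairs of groups, as a description over genes that share their libraries. In each of the 16 libraries Psmb5 was above Psmb6, Psmb10 above Psmb8 and Psmb8 above Psmb9. Among the neighbours whose order changed between libraries were Psmb6 and Psmb4, Psmc1 and Psmc3, and Psmd7 and Psmd12, the first of each pair being higher in 8 of 16. Psmd11 was above Psmd14 in 7 and Psmd10 above Psmg3 in 6 of 16 libraries, although their means had that order. The outer ring, whose subunits enter the particle in equal numbers, spanned 3.68 times in TPM from Psma6 to Psma2. For the inner ring the span was 4.45 times from Psmb5 to Psmb1. Exon lengths enter these spans: Psma6 has 1234 bases and Psma2 3673, with 899 to 2080 and 1069 to 1531 reads per library. Likewise, Psmb5 and Psmb1 have 899 and 4595 bases, with 1730 to 2659 and 1742 to 2796 reads. Levels are less certain where reads could be split with copies: of the sequences of 31 bases in their transcripts, 71.7% for Psmb5 and 58.7% for Psma5 occurred in other genes too, such as Psmb5-ps for Psmb5 and Gm8394, a processed pseudogene, for Psma5.

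**Figure D1:**
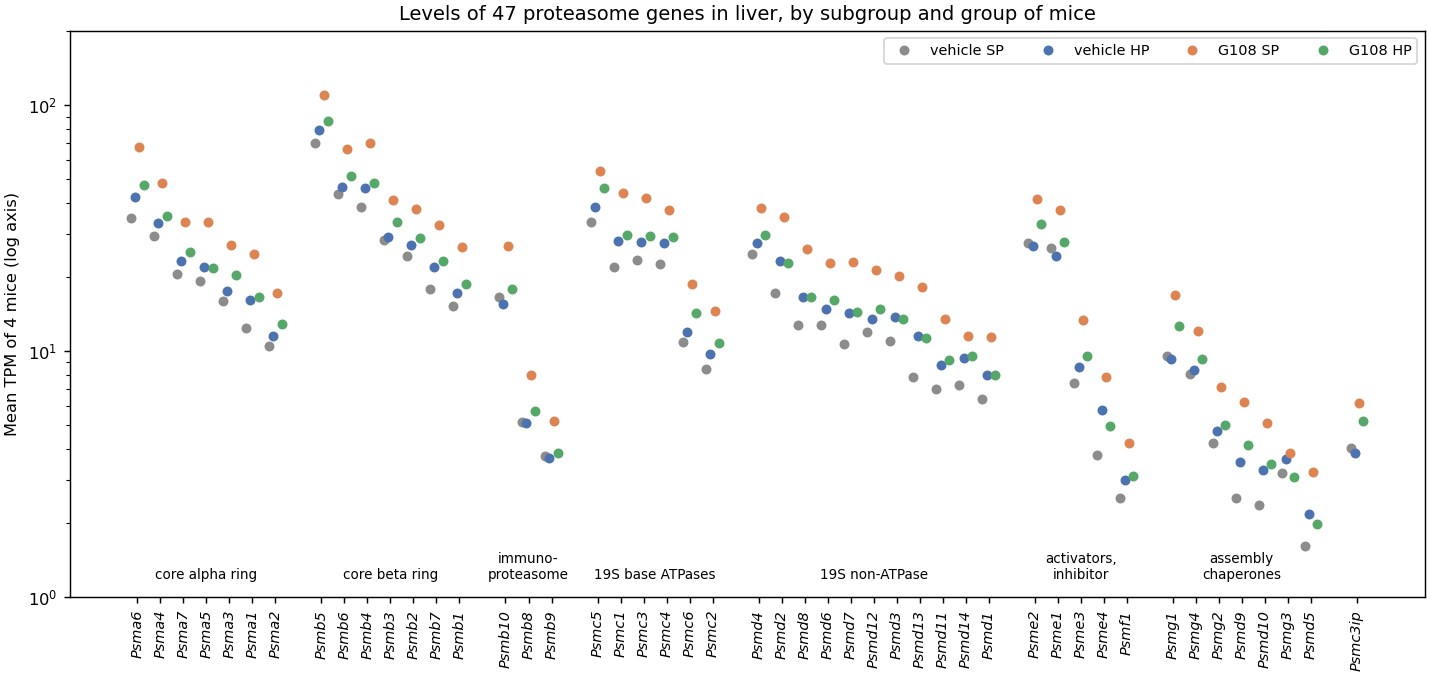
Mean TPM of the 47 tested members in each group of 4 mice, on a log axis, arranged by role and ordered by level within a role. Psmb5 is the highest member, at 86.6 TPM over all mice, and the G108 SP points lie above the others in TPM as deposited, a difference that median-of-ratios scaling takes to a median log2 fold change of 0.05.

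The first comparison asked whether G108 changed proteasome genes on standard protein. In TPM as deposited, 46 of the 47 tested members passed as higher in G108 SP than in vehicle SP mice (limma, adjusted p under 0.05), as did 77.0% of all 11839 genes tested. Their median log2 fold change was 0.75, beside 0.60 for all genes. After median-of-ratios scaling the median was 0.05, beside -0.01 for all genes, and 2 members passed, Psmd9 with a rise and Psmg3 with a fall. In that scaling 1.33% of all genes were called higher and 1.39% lower. Without vehicle SP mouse 4 the count in TPM was 45, with a median of 0.61.

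Summed over the 50 members, vehicle SP mice had 679, 946, 855 and 562 TPM and G108 SP mice 1212, 1243, 1392 and 1333 TPM in mice 1 to 4. The groups did not overlap, and the lowest G108 SP mouse was above the highest vehicle SP mouse. After scaling the sums were 982, 982, 961 and 826 with vehicle on SP and 1034, 941, 906 and 909 with G108 on SP. These overlap, and the vehicle SP mouse with 826 was the lowest of all 16. Singly, 41 of the 47 members had TPM that did not overlap between the groups on SP, beside 56.4% of all genes. After scaling only Psmd7, Psmd9 and Psmg3 did not overlap, beside 9.21% of all genes.

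**Figure D2:**
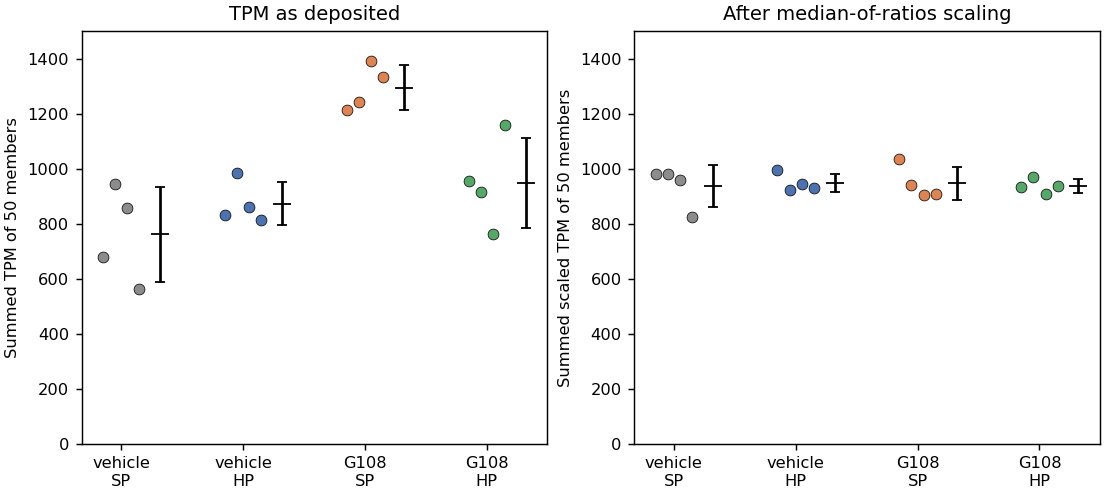
Summed level of the 50 members in each mouse (points), with the group mean and SD of 4 mice (bars), in TPM as deposited on the left and after median-of-ratios scaling on the right. The G108 SP mice lie between 1212 and 1392 in TPM, above all other mice, and between 906 and 1034 after scaling, where the groups overlap.

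All 7 outer-ring genes rose in TPM on SP with a median log2 fold change of 0.74, which was 0.00 or slightly below after scaling, where 0 passed and 0 had an unadjusted p under 0.05. Psma6 was at 31.2, 45.8, 43.2 and 18.4 TPM in vehicle SP mice 1 to 4 and at 63.4, 63.5, 72.9 and 70.3 TPM in G108 SP mice (log2 fold change 1.02, SE 0.23, limma adjusted p = 0.00217). The 4 treated mice were all above the 4 controls, and after scaling the fold was 0.26 (limma adjusted p = 0.360). Psma2, the lowest of the ring, had the smallest fold in TPM, from 10.5 ± 2.16 to 17.3 ± 1.42 TPM (SD, n = 4, log2 fold change 0.69, limma adjusted p = 0.00158), or -0.03 after scaling. Vehicle SP mouse 4 had 18.4 TPM of Psma6, against 45.8 TPM in vehicle SP mouse 2.

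In the inner ring, all 7 genes rose in TPM on SP with a median of 0.67, or -0.10 after scaling, where 0 were called and 0 had an unadjusted p under 0.05. Psmb5, with the chymotrypsin-like site, was at 66.6, 87.3, 73.1 and 52.8 TPM with vehicle on SP and at 115, 106, 112 and 106 TPM with G108 on SP. Psmb6, with the caspase-like site, was at 40.03, 53.2, 40.1 and 41.4 TPM and at 68.8, 65.2, 70.2 and 61.6 TPM in the same groups. Both were higher in every treated mouse than in any control (log2 fold change 0.67 and 0.60, limma adjusted p = 0.00258 and 0.00186), and both were below 0 after scaling (-0.10 and -0.16, adjusted p = 0.613 and 0.538). Psmb7, with the trypsin-like site, was at 16.3, 24.1, 22.2 and 8.93 TPM with vehicle on SP and at 26.9, 32.2, 37.01 and 33.8 TPM with G108 on SP (log2 fold change 0.90, limma adjusted p = 0.00816, or 0.16 and 0.620 after scaling). It had the largest fold of the ring in TPM and Psmb3 the smallest, from 28.4 ± 4.57 to 41.3 ± 2.15 TPM (SD, n = 4, log2 fold change 0.53). Psmb7 shares 11.8% of its exon bases with Nek6 on the other strand.

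The 6 base ATPases rose in TPM on SP with a median of 0.75, or 0.04 after scaling, with 0 called then. Psmc1, which helps to open the gate of the core, had the largest fold, from 17.7, 27.7, 28.6 and 13.8 to 36.5, 43.8, 49.1 and 46.4 TPM in mice 1 to 4 (log2 fold change 1.02, SE 0.24, limma adjusted p = 0.00243). After scaling its fold was 0.27 with an unadjusted p of 0.0498 (limma adjusted p = 0.282). The smallest was that of Psmc5, the most abundant of the 6, from 33.4 ± 3.44 to 53.9 ± 3.46 TPM (SD, n = 4, log2 fold change 0.68, or -0.08 after scaling). Psmc2, the lowest in level, went from 8.45 ± 2.50 to 14.5 ± 0.776 TPM. The groups did not overlap in TPM for any of these genes.

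All 11 of the other regulatory particle subunits rose in TPM on SP, with the highest median of any role, 0.85, or 0.12 after scaling, where 0 passed. Psmd13, a subunit of the lid, had the largest fold of all members, from 6.59, 10.8, 11.4 and 2.59 to 14.3, 16.6, 21.7 and 20.4 TPM (log2 fold change 1.26, SE 0.34, limma adjusted p = 0.00479). Its groups did not overlap, but vehicle SP mouse 4 stood at 2.59 TPM and without that mouse the fold was 0.88. After scaling the fold of Psmd13 was 0.56 (SE 0.26, limma adjusted p = 0.272), and 10.1% of its exon bases lie in Sirt3 on the other strand. Psmd2, a scaffold of the base, went from 17.2 ± 6.26 to 35.3 ± 7.06 TPM (SD, n = 4, log2 fold change 1.04, or 0.30 after scaling). Psmd4, a receptor for ubiquitin and the most abundant of the 11, had the smallest fold, from 24.9 ± 3.98 to 38.2 ± 1.88 TPM (log2 fold change 0.61, limma adjusted p = 0.00175, or -0.14 after scaling). Psmd14, the deubiquitinase of the lid, overlapped between the groups (log2 fold change 0.64, limma adjusted p = 0.0293, or -0.06 and 0.850 after scaling).

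Of the activators and the inhibitor, 5 of 5 tested genes rose in TPM on SP with a median of 0.58, or 0.00 or slightly below after scaling, with 0 called. Psme1 and Psme2, the interferon-induced activator pair, had the smallest folds of the 5. Psme1 was at 24.02, 30.3, 26.8 and 23.7 TPM with vehicle on SP and at 32.6, 39.8, 40.6 and 37.3 TPM with G108 on SP (log2 fold change 0.51, limma adjusted p = 0.00569). After scaling it was -0.25, with an unadjusted p of 0.0289 and a limma adjusted p of 0.228, and Psme2 was -0.18 (adjusted p = 0.490). Psme3, the nuclear activator, and Psme4, which acts in acetylated histone turnover, went from 7.44 ± 2.58 to 13.4 ± 3.45 TPM and from 3.79 ± 1.68 to 7.87 ± 2.35 TPM (SD, n = 4). For both the groups overlapped (limma adjusted p = 0.0104 and 0.0117, or 0.742 and 0.475 after scaling). The inhibitor Psmf1 went from 2.54 ± 0.783 to 4.22 ± 0.540 TPM (log2 fold change 0.58, limma adjusted p = 0.00516), and its fold after scaling was under 0.01 in size (adjusted p = 0.990).

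All 3 immunoproteasome subunits rose in TPM on SP with a median of 0.55, or -0.13 after scaling, where 0 passed and 0 had an unadjusted p under 0.05. Psmb8 was at 4.56, 5.47, 5.83 and 4.85 TPM in vehicle SP mice 1 to 4 and at 7.39, 7.62, 7.63 and 9.44 TPM in G108 SP mice (log2 fold change 0.55, limma adjusted p = 0.00213). Psmb10 was at 15.2, 16.2, 17.1 and 17.9 TPM and at 29.8, 24.7, 26.5 and 26.3 TPM in those groups (log2 fold change 0.66, limma adjusted p = 9.56e-04). For both, every treated mouse was above every control. Psmb9 was at 3.29, 3.77, 4.73 and 3.26 TPM with vehicle and at 5.52, 5.91, 4.40 and 4.90 TPM with G108, where the groups overlapped (log2 fold change 0.38, SE 0.13, limma adjusted p = 0.0169). That was the smallest fold of any subunit called, and after scaling Psmb9 was at -0.25 (limma adjusted p = 0.294), Psmb8 at -0.13 and Psmb10 at -0.08. Psmb9 shares 5.79% of its exon bases with Tap1 and Psmb8 14.7% with Gm20496, in both cases on the other strand.

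**Figure D3:**
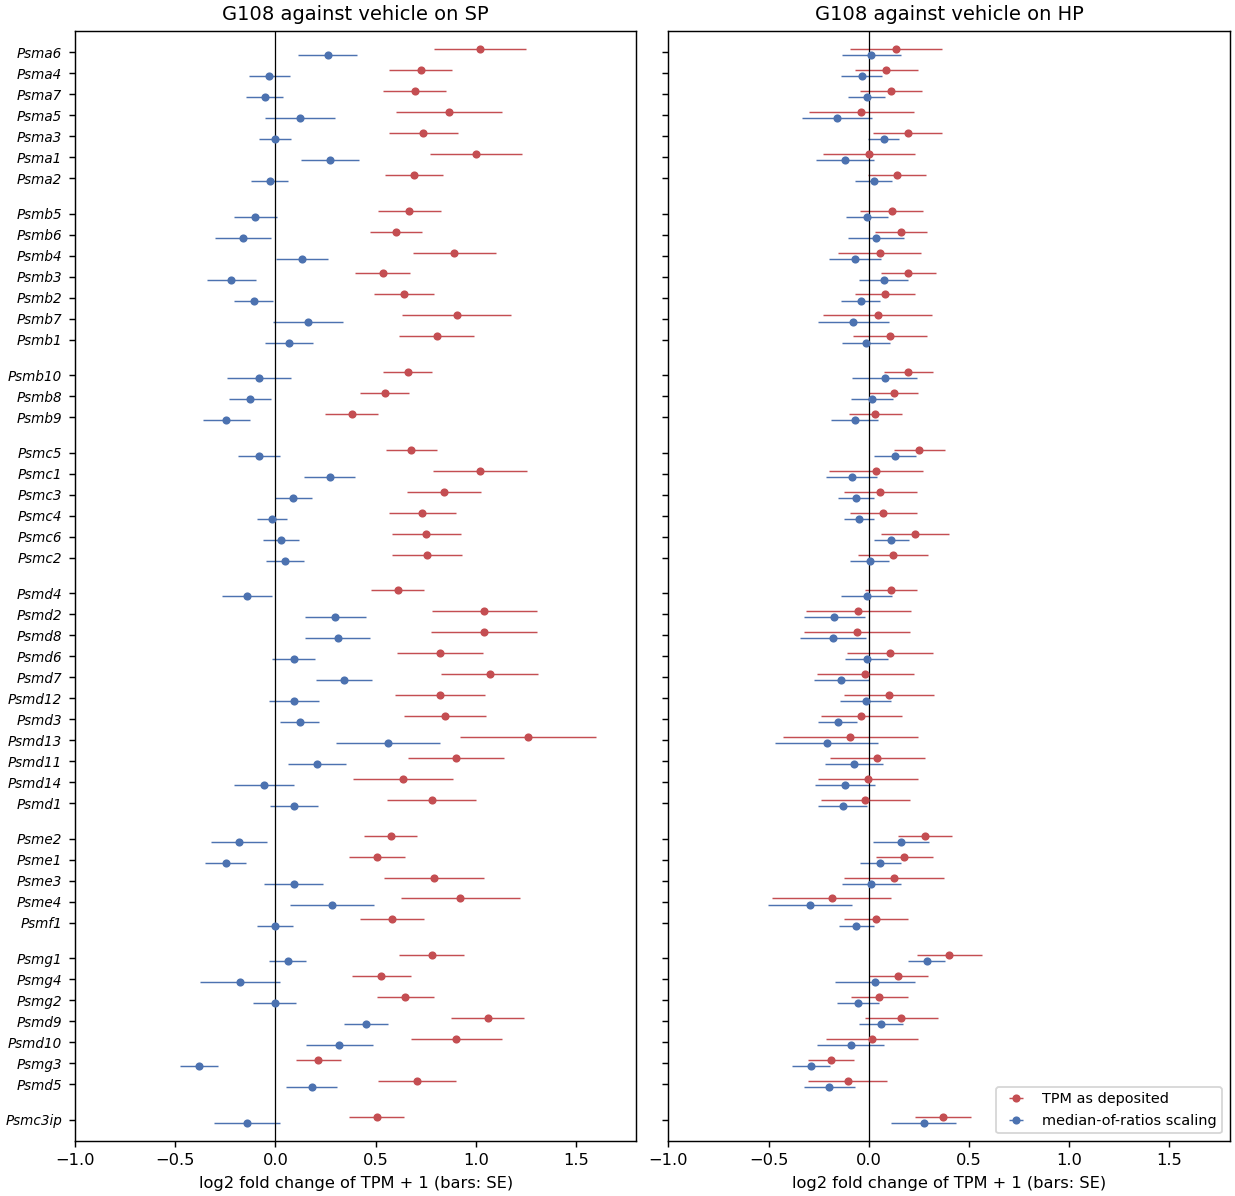
Log2 fold change of TPM + 1 (points) with its SE (bars) for each of the 47 tested members, G108 against vehicle on SP (left) and on HP (right), in TPM as deposited (red) and after median-of-ratios scaling (blue). On SP the median over members is 0.75 in TPM and 0.05 after scaling, and on HP it is 0.09 and -0.04.

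Both members called after scaling, Psmd9 and Psmg3, were assembly chaperones. In TPM 6 of the 7 rose on SP with a median of 0.71, or 0.06 after scaling, and the seventh was Psmg3. Psmd9, a chaperone of the base ATPases, was at 2.41, 3.36, 2.95 and 1.39 TPM in vehicle SP mice 1 to 4 and at 5.45, 5.63, 7.16 and 6.55 TPM in G108 SP mice. The lowest treated mouse was above the highest control, and the log2 fold change was 1.06 (SE 0.18, limma adjusted p = 6.80e-04). After scaling the levels were 3.48, 3.48, 3.31 and 2.04 with vehicle and 4.65, 4.26, 4.66 and 4.47 with G108, again without overlap (log2 fold change 0.45, SE 0.11, limma adjusted p = 0.0414). Vehicle SP mouse 4 was the lowest of its group, and without it the scaled fold was 0.32 (limma adjusted p = 0.0322). Leaving out vehicle SP mouse 3 or any 1 of the 4 G108 SP mice took the adjusted p to between 0.0612 and 0.128.

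Psmg3, a chaperone of the outer ring that pairs with Psmg4, was at 3.08, 3.77, 3.42 and 2.54 TPM in vehicle SP mice and at 4.17, 3.90, 3.73 and 3.59 TPM in G108 SP mice, where the groups overlapped (log2 fold change 0.21, limma adjusted p = 0.0944). After scaling it was at 4.45, 3.91, 3.84 and 3.73 with vehicle and at 3.56, 2.96, 2.43 and 2.45 with G108. All 4 treated mice were then below all 4 controls, and the level fell by 0.38 on the log2 scale (SE 0.10, limma adjusted p = 0.0498). Leaving out any 1 SP mouse other than G108 SP mouse 1 took the limma adjusted p to between 0.0636 and 0.188. The fold of Psmg3 thus had opposite signs before and after scaling. Its partner Psmg4 went from 8.10 ± 0.715 to 12.1 ± 1.12 TPM (SD, n = 4), or -0.18 after scaling (limma adjusted p = 0.634). The gene models limit both calls: 25.5% of the exon bases of Psmd9 lie in Gm26745 on the other strand and 9.68% of those of Psmg3 in Gm26938 on the same strand. The strand setting of the counting is not given in the sources used here.

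**Figure D4:**
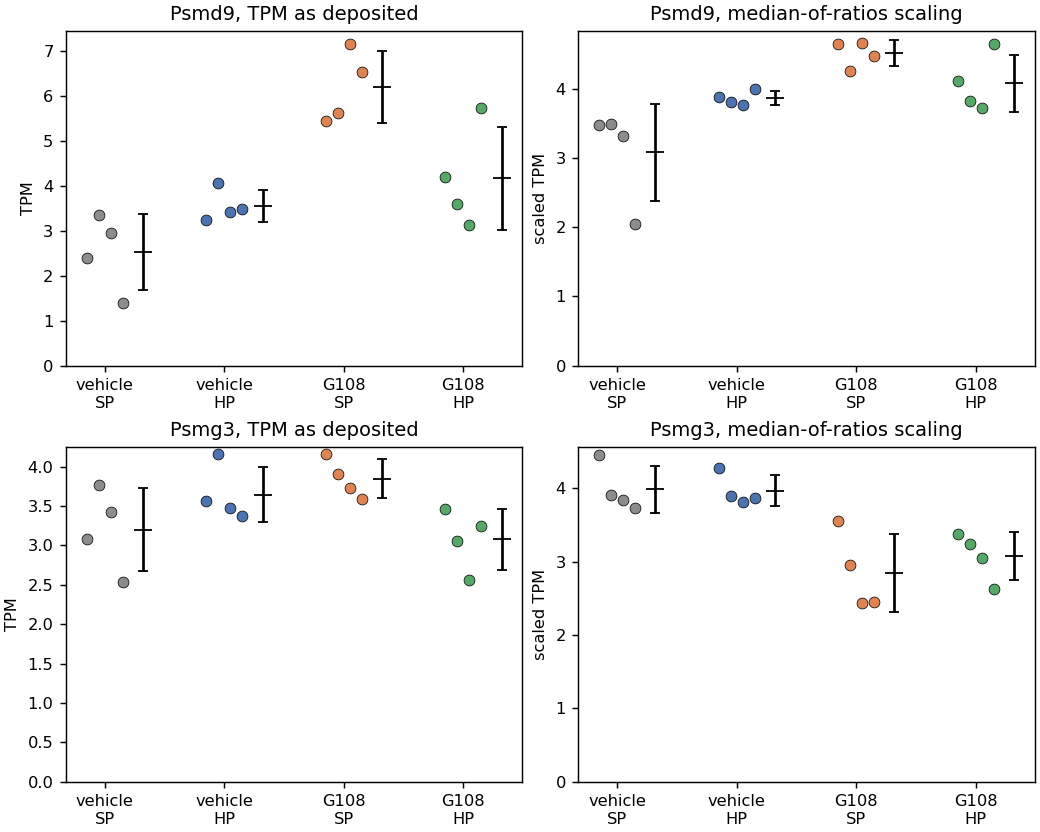
Level of Psmd9 (top) and Psmg3 (bottom) in each mouse (points), with the group mean and SD of 4 mice (bars), in TPM as deposited (left) and after median-of-ratios scaling (right). Psmd9 is higher in all 4 G108 SP mice than in the vehicle SP mice in both panels, and Psmg3 is lower in all 4 only after scaling, where its log2 fold change is -0.38.

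The second comparison asked the same of G108 on high protein. On HP 0 of the 47 members were called by limma and 2 had an unadjusted p under 0.05, beside 1.11% of all genes called and 11.9% with such a p. The median over members was 0.09, as for all genes, and after scaling it was -0.04, again with 0 called and 2 at an unadjusted p under 0.05 (1.22% and 11.3% of all genes). Summed over members, vehicle HP mice had 829.9, 985, 861 and 812 TPM and G108 HP mice 956, 917, 762 and 1159 TPM. The groups overlapped, with G108 HP mouse 3 the lowest and G108 HP mouse 4 the highest of the 8. Without G108 HP mouse 3 the count was still 0 and the median 0.19, and without G108 HP mouse 4 the median was -0.03. With array quality weights 4 members were called on HP, beside 18.0% of all genes. TPM of the groups on HP overlapped for all 47 members, while 8.88% of all genes had groups without overlap.

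Psmg1, an outer-ring chaperone, was at 8.88, 11.6, 9.14 and 7.75 TPM with vehicle on HP and at 11.5, 12.7, 11.1 and 15.2 TPM with G108 on HP (log2 fold change 0.40, SE 0.16, unadjusted p = 0.0255, limma adjusted p = 0.317). After scaling all 4 treated mice were above the controls, at 12.6 ± 1.02 against 10.1 ± 0.891 (SD, n = 4), and the adjusted p was 0.187 by limma. Psmg3 on HP was at 4.28, 3.90, 3.81 and 3.87 with vehicle and at 3.38, 3.24, 3.05 and 2.63 with G108 after scaling, without overlap and in the same direction as on SP (log2 fold change -0.29, limma adjusted p = 0.213). Psma5 was the other member whose scaled groups did not overlap on HP (log2 fold change -0.16, limma adjusted p = 0.830), beside 8.15% of all genes. None of these 3 passed. Psmc3ip, which is no subunit, had the other unadjusted p under 0.05 in TPM, from 3.86 ± 1.01 to 5.19 ± 0.316 (limma adjusted p = 0.271).

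By role, the median log2 fold change on HP in TPM lay between -0.02 for the 11 other regulatory particle subunits and 0.13 for the activators and for the immunoproteasome subunits. Psmb5 was at 78.8, 89.4, 77.7 and 72.3 TPM with vehicle on HP and at 86.04, 85.5, 71.9 and 103 TPM with G108 (log2 fold change 0.11, limma adjusted p = 0.903). Psmb8 was at 5.44, 5.08, 5.01 and 5.003 and at 5.41, 6.29, 4.58 and 6.66 TPM (limma adjusted p = 0.814), and Psmb9 at 3.61, 3.76, 3.92 and 3.48 and 3.81, 3.53, 3.13 and 4.89 TPM (adjusted p = 0.977). All of these overlapped between the groups. Psmb10 was at 18.1, 15.7, 14.9 and 13.6 TPM with vehicle and at 16.1, 18.8, 16.8 and 20.03 TPM with G108 on HP (log2 fold change 0.20, limma adjusted p = 0.600), and Psmd9 at 3.55 ± 0.356 and 4.17 ± 1.14 TPM (adjusted p = 0.855).

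The third question was whether dietary protein moved these genes with treatment held fixed. Between HP and SP with G108, all 47 members had a lower mean on HP in TPM, with a median log2 fold change of -0.45 beside -0.35 for all genes. None passed the limma adjusted p of 0.05 and 39 had an unadjusted p under 0.05, beside 0% of all genes called and 45.0% with such a p. After scaling the median was -0.04, with 0 called and 0 at an unadjusted p under 0.05 (0% and 5.40% of all genes). The number of members called at an adjusted p under 0.05 in TPM, 0 with all mice, was 35 without G108 HP mouse 4 (42.6% of all genes called), 7 without G108 SP mouse 1 (25.4%) and 44 with array quality weights (71.8%). The largest difference was that of Psmd13 (log2 fold change -0.71, limma adjusted p = 0.115), from 18.3 ± 3.42 to 11.3 ± 4.45 TPM (SD, n = 4), and the lowest adjusted p that of Psmb10 (log2 fold change -0.56, limma adjusted p = 0.0721, or -0.12 after scaling).

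With vehicle, 0 members were called between HP and SP by limma and 1 had an unadjusted p under 0.05, beside 0% and 3.16% of all genes. The median was 0.21, beside 0.14 for all genes, and 0.07 without vehicle SP mouse 4. The 1 member was Psmd9, at 2.53 ± 0.853 TPM on SP and 3.55 ± 0.356 TPM on HP (log2 fold change 0.40, unadjusted p = 0.0419, limma adjusted p = 0.727). After scaling 0 were called and 3 had an unadjusted p under 0.05 (0% and 3.94% of all genes), namely Psmd9 at 0.27, Psme1 at -0.30 and Psmg1 at -0.20, each with a limma adjusted p of 0.832.

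Whether the effect of G108 differed between the diets was tested as an interaction. In TPM all 47 members had a smaller fold on HP than on SP, with a median interaction of -0.64 beside -0.49 for all genes, but 0 were called by limma. An unadjusted p under 0.05 was seen for 38, beside 48.0% of all genes, of which 0% were called. After scaling 0 members were called, 3 had an unadjusted p under 0.05 and the median was -0.06 (0% and 7.21% of all genes). By limma, those 3 were Psmd9 (interaction -0.39), Psmd7 (-0.48) and Psmd2 (-0.47), each at a limma adjusted p of 0.575. The number called at an adjusted p under 0.05 in TPM, 0 with all mice, was 35 without G108 HP mouse 4 (43.9% of all genes called), 31 without vehicle SP mouse 2 (29.3%), 15 without G108 SP mouse 1 (33.4%) and 38 with array quality weights (61.4%).

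RNA levels of immunoproteasome subunits were set against their constitutive counterparts as ratios within a library, which no scaling between libraries can move. The exchange of the proteins in the particle was not measured. Psmb8 stood at 6.26 to 9.18% of the level of Psmb5 in the vehicle SP mice, 5.68 to 6.92% in the vehicle HP mice, 6.41 to 8.87% in the G108 SP mice and 6.29 to 7.36% in the G108 HP mice. These ranges overlap in all 4 groups. Psmb9 stood at 8.75% ± 2.10 of Psmb6 with vehicle on SP, 8.02% ± 0.817 with vehicle on HP, 7.83% ± 1.16 with G108 on SP and 7.41% ± 1.28 with G108 on HP (SD, n = 4 each). In TPM, Psmb10 stood at 58.2 to 117% of Psmb7 in 15 mice. The exception was vehicle SP mouse 4, at 200.3%, where Psmb7 had 8.93 TPM and Psmb10 17.9 TPM. The size of all these percentages depends on exon length. Psmb8 has 3381 exon bases and 450 to 765 reads per library, against 899 bases and 1730 to 2659 reads for Psmb5. Psmb10 has 1705 bases and 615 to 1205 reads, against 3421 bases and 1207 to 3063 reads for Psmb7. The division by exon length is the same in all libraries, so it cancels when these ratios are compared between groups. Deviations of members from their group still followed exon length differently by library. Their Spearman's rho with it ran from -0.48 in G108 HP mouse 2 to 0.48 in vehicle HP mouse 4, and its part in these ratios was not tested.

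None of the 15 comparisons of these ratios passed. On SP, the log2 ratio with G108 minus that with vehicle was -0.04 for Psmb8 to Psmb5 (two-sided exact permutation test, p = 0.800), -0.15 for Psmb9 to Psmb6 (p = 0.514) and -0.26 for Psmb10 to Psmb7 (p = 0.657). On HP the differences were 0.03, -0.12 and 0.16 (exact permutation p = 0.771, 0.400 and 0.600). Between HP and SP they were -0.14, -0.08 and -0.06 with G108 and -0.21, -0.10 and -0.48 with vehicle, none with an exact permutation p below 0.257. The interaction gave exact permutation p of 0.666, 0.937 and 0.394 over 4900 relabellings. The smallest Benjamini-Hochberg adjusted p over the 15 was 0.888, and 4 mice against 4 cannot give an exact p below 0.0286. Without vehicle SP mouse 4 the difference of Psmb10 to Psmb7 on SP was 0.08, so its direction rests on that mouse.

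**Figure D5:**
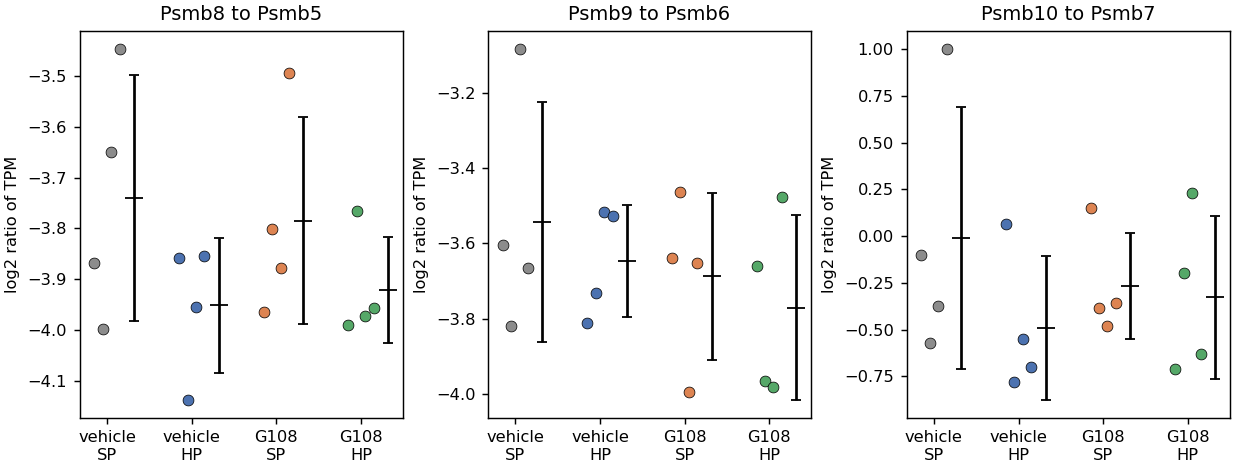
Log2 ratio of the TPM of each immunoproteasome subunit to that of the constitutive subunit it replaces, in each mouse (points), with the group mean and SD of 4 mice (bars). The groups overlap in every panel, and vehicle SP mouse 4 stands apart at 1.00 for Psmb10 to Psmb7.

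Immune cells hold much of the immunoproteasome of a tissue, so their markers were set beside it. The 8 lymphocyte and other leucocyte markers summed to 1.84 to 5.91 TPM in all mice, none of them reached a mean of 1 TPM, and the group medians were 3.29, 2.80, 3.66 and 2.77 TPM with vehicle on SP and on HP and with G108 on SP and on HP. The 8 Kupffer cell and macrophage markers summed to 31.8 to 49.8 TPM with vehicle on SP and 29.4 to 111 TPM with G108 on SP, and in TPM 0 of the 7 tested were called on either diet by limma, with 0 at an unadjusted p under 0.05. After scaling on SP, the 7 Kupffer cell and macrophage markers had a median of -0.19, beside -0.01 for all genes. Of these, 2 were above 0, 0 were called and 1 had an unadjusted p under 0.05, with a fall. None of the leucocyte, Kupffer cell and macrophage markers was at 0 in any library. Of the 4 endothelial markers, 2 were called higher in TPM on SP. After scaling 0 were called, but all 4 were below 0 with a median of -0.28, 3 had an unadjusted p under 0.05, and their sums did not overlap (17.05 to 20.1 with vehicle on SP and 13.9 to 15.4 with G108 on SP). Of the 4 red blood cell markers 1 was called higher in TPM and 0 after scaling, and of the 6 hepatocyte markers 4 and 0. The scaled median on SP was -0.28 for the hepatocyte markers and -0.17 for the red blood cell markers, each with 1 marker above 0. A negative median after scaling was thus not particular to the endothelial markers. The part of these cell types in the immunoproteasome levels was not tested.

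Genes that work with the immunoproteasome in antigen presentation were listed as well. Of 12 tested, 10 rose in TPM on SP with a median of 0.59 and 0 were called after scaling, where the median was -0.17 and 2 had an unadjusted p under 0.05. On HP 0 were called and 2 had such a p. Tap1, which carries the peptides into the endoplasmic reticulum and shares its promoter region with Psmb9, was at 3.63 ± 0.759 TPM with vehicle and 5.10 ± 0.413 TPM with G108 on SP (SD, n = 4, log2 fold change 0.41, limma adjusted p = 0.0126). After scaling it was -0.21 (limma adjusted p = 0.321). On HP Tap1 was at 4.00 ± 0.460 TPM with vehicle and 3.08 ± 0.511 TPM with G108 (log2 fold change -0.30, limma adjusted p = 0.390), or -0.40 after scaling (unadjusted p = 0.00236, adjusted p = 0.107).

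The other genes of the pathway were described from lists. All 9 tested partners outside the symbol rule, such as the deubiquitinases Usp14 and Uchl5, rose in TPM on SP with a median of 0.63, or -0.06 after scaling, with 0 called. Adrm1, a ubiquitin receptor of the regulatory particle, went from 13.7 ± 3.17 to 22.4 ± 2.41 TPM (SD, n = 4, log2 fold change 0.69, limma adjusted p = 0.00353, or -0.05 and 0.741 after scaling), and Pomp, which matures the inner ring, from 11.3 ± 2.17 to 19.3 ± 1.21 TPM (log2 fold change 0.74, limma adjusted p = 0.00133, or 0.02 and 0.956). Of 14 genes of ubiquitin supply and delivery 13 rose in TPM with a median of 0.84, or 0.09 and 0 called after scaling. Of 9 genes of proteasome gene control, 6 rose in TPM with a median of 0.54, or -0.15 and 0 called after scaling. Nfe2l1 was at 7.60, 11.3, 10.8 and 7.06 TPM with vehicle on SP and at 12.9, 16.8, 21.6 and 20.7 TPM with G108 on SP (log2 fold change 0.90, limma adjusted p = 0.00325). The groups did not overlap, and after scaling its fold was 0.18 (limma adjusted p = 0.415). On HP 0 genes of these 3 lists were called, with 1, from the delivery list, at an unadjusted p under 0.05 in TPM.

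After scaling, the typical member varied less between mice of a group than the typical gene did. The genes compared were not matched to the members in level, so this cannot be read as a trait of proteasome genes. The median coefficient of variation over the 47 members after scaling was 15.7% in vehicle SP, 9.03% in vehicle HP, 8.73% in G108 SP and 10.97% in G108 HP, beside 21.6, 14.7, 13.9 and 15.95% for all genes tested. In TPM it was 28.4, 11.7, 11.1 and 19.9%, beside 27.1, 17.9, 17.7 and 22.1% for all genes, so that in vehicle SP it was no lower. Psmd13 was the most variable member in vehicle SP, at 52.3% in TPM and 41.9% after scaling. Over the 16 libraries, log2 levels after scaling were compared with the mean of the standardized 14 core genes, each member left out of its own mean. The correlation had a median of 0.69 for the inner ring, 0.67 for the outer ring, 0.52 for the base ATPases and 0.30 for the other regulatory particle subunits. For the 3 immunoproteasome subunits it was 0.07 to 0.27, and for Psmc3ip -0.11. Such low values were not particular to them: Psmb6 (0.18), Psmb3 (0.22) and Psmc5 (0.12) lay in the same range. The median was 0.13 for the activators and inhibitor and 0.41 for the chaperones. Vehicle SP mouse 4, which differed from its group, was among the libraries, and its weight in these values was not tested. These correlations share their libraries and are given as a description.

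Psmb1 (r = 0.93), Psma4 (0.90) and Psmb4 (0.86) were the members most like the rest of the core, and Psmc2 the most alike of the base (0.85). Outside the rule, among 5320 genes with a mean of at least 5 TPM, the most alike over 16 libraries were Ddrgk1 (r = 0.92), Btf3 (0.91), Mpc2 (0.90), Sf3b5 (0.89) and Srp9 (0.89).

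Single mice differed from the rest of their group by a pattern that recurred in another group. After scaling, vehicle SP mouse 4 had a median deviation of -0.35 on the log2 scale from the other 3 mice, from -1.33 for Psmd13 to 0.47 for Psmc3ip. Psma5 (-0.91), Psmb7 (-0.85) and Psma6 (-0.77) were among the low members, and Psmb10 (0.43), Psmb6 (0.21) and Psmc5 (0.20) among the high ones. In G108 HP mouse 3 the same members were low or high: Psmd13 at -0.54, Psmb7 at -0.50, Psmb10 at 0.21 and Psmb6 at 0.25. Over the 47 members the deviations of the 2 mice, which share no group, gave a Pearson's r of 0.87 and a Spearman's rho of 0.88. Signs were equal for 39. Over all 11839 genes tested, deviations from the group means gave these 2 mice an r of 0.60. That was the highest of the 24 pairs with equal and 72 pairs with different mouse numbers. The likeness was thus not particular to the members. Over all genes, vehicle SP mouse 4 also had an r of 0.52 with vehicle HP mouse 1 and of -0.57 with G108 HP mouse 4. In vehicle SP mouse 4 the deviation had a Spearman's rho of -0.54 with the span of the gene, -0.31 with exon length and 0.51 with the GC content of the transcripts, and in G108 HP mouse 3 of -0.45, -0.37 and 0.45. The other 14 mice had a rho with gene span between -0.59 and 0.56. These are descriptions over genes of shared libraries, and their part in the folds was not tested.

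Across members, the log2 fold change after scaling on SP had a Spearman's rho of 0.32 with exon length and -0.38 with GC content, and on HP of -0.34 and 0.09.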

How the data were processed

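Liver RNA of 16 mice was measured as TPM (reads per transcript length, as a share of the library's total), and the single table the authors deposited holds 1 TPM column per library, with no counts. Per the labels and the submitters' processing notes, reads were checked with FastQC 0.11.8, aligned to GRCm38 with HISAT2 2.0.5 and counted with featureCounts, and the authors tested counts with DESeq2 1.36.0, which was not used here. Whether the counting used strand is not given in the sources used here.

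Gene symbols, exon lengths and overlaps were taken from a GRCm38 annotation that gave a symbol to 55141 of 55487 rows, and it may differ from the authors' annotation. The steps of low TPM values came within 0.02 of whole reads for 98.7% of 138931 values, from which depth was recovered as 27.8 to 45.03 M reads per library. TPM sum to the same total in each library, so a larger share of some transcripts leaves a smaller share for the others together.

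log2(TPM + 1) was fitted with limma 3.58.1 in R 4.3.3 for the 11839 genes that averaged 1 TPM or more, with all 4 groups in the same model and no covariate. Fold changes on this scale understate those of low genes. Adjusted p-values are Benjamini-Hochberg values over all genes tested. The same fit was repeated after median-of-ratios scaling, and the code was tested on simulated data. Ratios of subunits were compared with two-sided exact permutation tests. Replicates are separate mice by the labels. Alternatives were another pseudocount, other filters, a fit restricted to the groups compared, and TPM rescaled without Mup and mitochondrial genes. Array quality weights, a block on mouse number and voom on the recovered reads were also used. Each library was left out in turn, only for the comparisons that use its group.

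The members and gene lists were chosen with earlier results of these data known. Values are given for the immunoproteasome subunits and their counterparts, the activators and inhibitor, the highest and lowest level and fold of each role, members called after scaling, and Nfe2l1, Pomp, Adrm1 and Tap1. Psmd2, Psmd7, Psmd14, Psmg4, Psma5 and Psmc3ip, and the members named for their deviation in single mice, were named after their values were seen.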

Additional observations from a re-analysis of the deposited data

Results flagged for a closer look

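In groups of 4 mice, a value was listed where the gap between the extreme mouse and the next, divided by the range of the group, passed Dixon's 95% critical value. Of 80 groups examined, 4 were listed, and chance lists about 1 in 20. Psmb6 stood at 53.2 TPM in vehicle SP mouse 2, with the other 3 mice at 40.03 to 41.4 TPM. Psmb8 stood at 5.44 TPM in vehicle HP mouse 1, with the others at 5.003 to 5.08 TPM, and at 9.44 TPM in G108 SP mouse 4, with the others at 7.39 to 7.63 TPM. The log2 ratio of Psmb8 to Psmb5 was -3.76 in G108 HP mouse 2, with the others at -3.99 to -3.96.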

How the results depend on the processing

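The count of members called with G108 on SP depended on the scaling. It was 46 in TPM, all higher, 2 after median-of-ratios scaling (1 higher, 1 lower), 0 in TPM rescaled without Mup and mitochondrial genes and 2 with voom on recovered reads (1 higher, 1 lower), and the median fold was 0.75, 0.048, 0.11 and 0.059. Another pseudocount, other filters, the block, array weights, a restricted fit and leaving out single mice gave 40 to 47. The count of 40 came with the filter of 5 TPM, which tests fewer members. In TPM 77.0% of all genes were called higher, and that share is not given here for these alternatives. On SP, median-of-ratios scaling, rescaling without Mup and mitochondrial genes and voom turned the log2 fold change of Psmb5 to -0.10, -0.037 and -0.10, of Psmb6 to -0.16, -0.10 and -0.16, of Psmb8 to -0.13, -0.076 and -0.14, of Psmb9 to -0.25, -0.22 and -0.31, of Psmb10 to -0.082, -0.021 and -0.081, of Psme1 to -0.25, -0.19 and -0.25, of Psme2 to -0.18, -0.12 and -0.18, and of Psmg3 to -0.38, -0.38 and -0.51.

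Array quality weights took the count on HP from 0 to 4 (18.0% of all genes called), between HP and SP with G108 from 0 to 44 (71.8%) and for the interaction from 0 to 38 (61.4%), and the cause was not tested. The median between HP and SP with G108 was -0.45 in TPM, -0.035 after median-of-ratios scaling and -0.038 with voom, and the median interaction -0.64 in TPM, -0.060 after scaling, -0.19 without Mup and mitochondrial genes and -0.072 with voom. Leaving out single mice gave counts of 0 to 35 between HP and SP with G108 and 0 to 35 for the interaction.

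After median-of-ratios scaling the count on SP was 2, beside 1.33% of all genes called higher and 1.39% lower. It was 6 with array quality weights and 0 to 1 with a mouse left out, settings chosen after the data were seen. With the mouse number as a replicate block the count was 1, since Psmd9 had a limma adjusted p of 0.0978. The share of all genes called under these alternatives is not given here, so their counts cannot be set against it. Deviations of mice with the same number in different groups gave r from -0.57 to 0.53 (24 pairs, median -0.028, 8 above 0.1). Mice with different numbers gave r from -0.55 to 0.60 (72 pairs, median 0.016, 32 above 0.1). As a set, mice with the same number were thus not more alike than the others. Because r ranged widely in both sets, these values cannot exclude a shared batch or a pairing of some mice. The block left the count on SP in TPM at 46. With voom, Psmd9 and Psmg3 had adjusted p of 0.0326 and 0.0413. Leaving out single mice moved the log2 ratio difference of Psmb10 to Psmb7 between -0.45 and 0.079 on SP, -0.022 and 0.35 on HP and -0.25 and 0.080 between diets with G108. For Psmb8 to Psmb5 the range was -0.14 to 0.053 on SP, -0.032 to 0.063 on HP and -0.023 to 0.17 for the interaction. For Psmb9 to Psmb6 it was -0.24 to 0.0084 on SP, -0.20 to 0.050 between diets with vehicle and -0.13 to 0.11 for the interaction. No ratio comparison passed under any of these.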
